A study of Mus musculus with 9 samples.

Results

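The genes described here are 35 mouse genes of the interferon response and of the p200 family, out of 54232 genes in the count table. They were chosen by symbol: 20 antiviral effectors, 5 transcription factors, 3 cytosolic RNA sensors, 3 guanylate binding proteins, the chemokine gene Cxcl10 and the p200 family genes Ifi202b, Ifi204 and Ifi203. All 35 were found in the table. Of these, 34 passed the filter on low counts and were tested, and Oas3 did not, with a mean of 0.0286 CPM, a count scaled to the size of its library.

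RNA was sequenced from primary mouse embryonic neural stem cells, whose tissue is given as the subventricular zone of the brain, grown on laminin (5 µg/mL) with FGF (10 ng/mL) and EGF (20 ng/mL). The cells were harvested 3 days after treatment with a short hairpin RNA. A group of 3 libraries had a non-targeting hairpin (shNT), and 2 groups of 3 had hairpins against Phf2, named sh900 and sh902. Phf2 encodes a histone demethylase of the PHD finger family. Within each group 1 library carried no date, 1 carried the date 30 August and 1 the date 3 September. What the dates mark is not stated, nor is whether the libraries came from separate cultures, so the p-values reflect differences among libraries that could be technical. No strain, sex, donor number or untreated culture is given, and all 3 groups received a hairpin.

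Type I interferons bind a receptor at the cell surface whose kinases activate STAT2. With IRF9 it forms part of a complex that binds the interferon-stimulated response element, a repeat of GAAA blocks, in the promoters of antiviral genes. Interferon gamma acts through a palindromic element instead. The p200 proteins carry HIN domains that bind DNA and include cytosolic and nuclear DNA sensors. Neural stem cells express receptors for interferon, and many interferon-stimulated genes are known to be active at a basal level in stem cells.

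The promoter windows of the members were searched for letters of both elements. RefSeq entries (GRCm38.p6) with 250 bases before and 50 bases after the start were found for 27 of the 35 members. Dhx58, Ifi204, Ifi27, Mx1, Mx2, Oas2, Parp14 and Usp18 had no entry. The letters GAAANNGAAA, on either strand and counting overlapping matches, were present for 16 of the 27, or 59.3%, against 3.99% of all 27025 genes with such windows. The palindrome TTCNNNGAA was present for 7 of the 27, or 25.9%, against 9.55% of all genes. A match describes the letters only.

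The 250 bases upstream of the start are printed for 6 members, 5′ to 3′ on the gene's strand, with matches in capitals. The choice does not represent the members called below: Ifit3, Ifit3b and Isg15 were called for no hairpin. Of the members called, Ifi35, Ifi44, Irf7 and Irf9 have no GAAANNGAAA in their windows. Ddx58 has a match only after the start, and these windows are not printed. Ifit3 (chr19:34583279-34583528, plus strand) and Ifit3b (chr19:34607707-34607956, plus strand) are neighbours whose windows hold the same pair of matches. Isg15 (chr4:156200819-156201068, minus strand) has 3 matches that overlap, and Gbp3 (chr3:142559794-142560043, plus strand) has 2 that overlap. Ifi203 (chr1:173942493-173942742, minus strand) has 1 match 35 bases before the start. Ifi202b (chr1:173982845-173983094, minus strand) has no GAAANNGAAA in the window, and its capitals mark TTCNNNGAA.
Ifit3: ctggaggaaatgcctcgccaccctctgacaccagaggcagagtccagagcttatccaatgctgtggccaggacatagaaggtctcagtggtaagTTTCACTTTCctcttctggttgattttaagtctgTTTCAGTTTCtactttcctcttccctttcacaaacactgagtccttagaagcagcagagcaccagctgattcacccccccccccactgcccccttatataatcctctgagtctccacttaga
Ifit3b: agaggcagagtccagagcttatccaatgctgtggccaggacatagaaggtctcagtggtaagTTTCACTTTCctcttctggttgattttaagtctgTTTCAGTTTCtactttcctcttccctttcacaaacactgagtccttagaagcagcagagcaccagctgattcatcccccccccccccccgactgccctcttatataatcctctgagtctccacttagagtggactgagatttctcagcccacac
Isg15: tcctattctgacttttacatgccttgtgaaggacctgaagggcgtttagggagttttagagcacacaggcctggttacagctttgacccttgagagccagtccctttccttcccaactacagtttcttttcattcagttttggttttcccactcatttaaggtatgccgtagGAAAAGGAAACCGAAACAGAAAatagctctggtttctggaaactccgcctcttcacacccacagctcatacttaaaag
Gbp3: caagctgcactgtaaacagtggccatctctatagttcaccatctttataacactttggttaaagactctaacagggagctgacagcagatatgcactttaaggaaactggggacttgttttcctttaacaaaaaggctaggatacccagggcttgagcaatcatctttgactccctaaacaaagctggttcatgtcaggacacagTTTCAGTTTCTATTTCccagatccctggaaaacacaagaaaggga
Ifi203: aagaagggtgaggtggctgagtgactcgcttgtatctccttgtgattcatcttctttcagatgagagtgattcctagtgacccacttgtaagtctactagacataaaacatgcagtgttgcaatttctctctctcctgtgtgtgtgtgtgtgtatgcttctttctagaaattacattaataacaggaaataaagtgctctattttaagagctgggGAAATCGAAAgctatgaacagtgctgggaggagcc
Ifi202b: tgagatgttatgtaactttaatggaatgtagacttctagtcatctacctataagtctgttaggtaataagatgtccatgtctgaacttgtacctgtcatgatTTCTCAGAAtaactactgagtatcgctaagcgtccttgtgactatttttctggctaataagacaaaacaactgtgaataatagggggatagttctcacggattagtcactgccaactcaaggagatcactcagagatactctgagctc
Gbp3 and Ifi203 each had another start with no match of either kind in its window.

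The libraries held 23212472 to 32392496 counts. By these totals, before the library sizes were adjusted, a gene under 1 CPM rested on fewer than 32.4 counts. Phf2 was at 56.3, 52.8 and 48.7 CPM in the shNT libraries (undated, 30 August and 3 September), at 19.8, 14.9 and 25.5 CPM with sh900 and at 25.0, 17.0 and 28.1 CPM with sh902. All 6 hairpin libraries lay below all 3 controls, and sh900 and sh902 overlapped. All 12 neural stem cell markers passed the low-count filter. In these bulk samples fewer cells of a type and less RNA per cell cannot be told apart.

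The 31 tested members outside the p200 family varied first with the date label. Their summed level was 1545 CPM in the undated shNT library, 251 CPM in that of 30 August and 456.6 CPM in that of 3 September, so the 3 controls spanned 6.16-fold. With sh900 the sums were 2526, 289.8 and 1473 CPM, and with sh902 they were 1786, 437.7 and 1217 CPM, in the same order of labels. The 3 lowest sums were those of 30 August, whatever the hairpin. The highest of the 9 libraries was an undated one for 30 of these 31 genes, and for 28 it was undated sh900. The lowest was a library of 30 August for 25 genes and the shNT library of 3 September for 6. All 3 libraries of 30 August lay below the other 6 for 16 of the 31, against 4.72% of all genes tested. For none were they all above the other 6, against 3.67% of all genes.

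**Figure D1:**
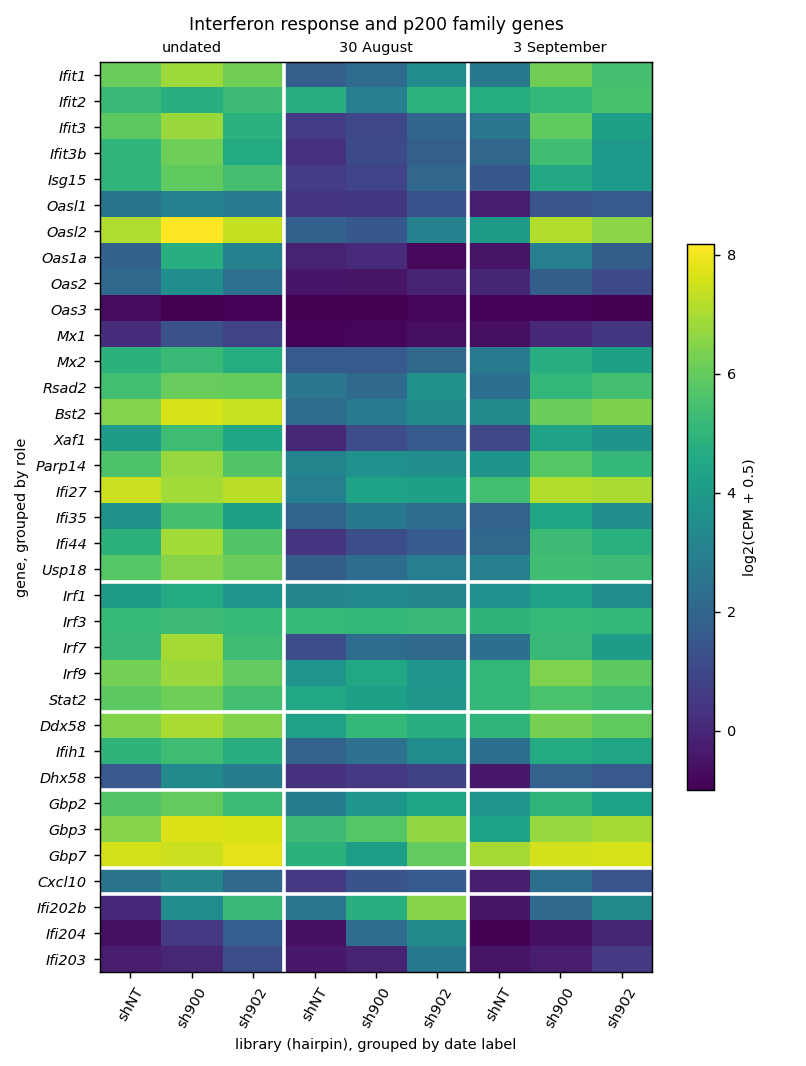
Level of all 35 members in each of the 9 libraries, as log2(CPM + 0.5) by colour, with libraries grouped by date label and genes by role. The block of 30 August is dark for most genes above the p200 family, where the 3 shNT sums run from 251 to 1545 CPM, while Ifi202b, Ifi204 and Ifi203 are brightest in sh902 of 30 August.

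Of the p200 family genes, Ifi202b and Ifi204 were highest on 30 August within every group. With shNT this rested for Ifi204 on 4 counts against 4 in the undated library. Ifi203 was highest on 30 August with sh902 alone. It was at 0.329, 0.269 and 0.191 CPM with shNT and at 0.482, 0.436 and 0.330 CPM with sh900 (undated, 30 August and 3 September). Ifi202b, Ifi204 and Ifi203 were each highest in sh902 of 30 August and lowest in shNT of 3 September. Their summed level was 0.987, 5.92 and 0.382 CPM with shNT (undated, 30 August and 3 September), 11.6, 31.8 and 4.44 CPM with sh900 and 41.4, 105.2 and 10.8 CPM with sh902. Ifi202b made up 5.499 of the 5.92 CPM in shNT of 30 August. Within every label sh902 was highest, sh900 next and shNT lowest. Levels per kilobase of exon, averaged over the 9 libraries, ran over the 34 tested members from 77.8 CPM per kb for Bst2, 60.3 for Ifi27 and 32.01 for Gbp3 down to 0.581 for Ifi204, 0.181 for Ifi203 and 0.167 for Mx1. Oas3, which was not tested, lay below these at 0.00405. Ifi202b stood at 11.98 CPM per kb.

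The comparison of the design sets the hairpins against Phf2 beside shNT, to see which genes differ when Phf2 is reduced. Against the shNT library of the same label, most members were higher with a Phf2 hairpin, and the size of the difference varied with the label. On 3 September the median log2 ratio of the 31 members was 2.29 with sh900 and 1.68 with sh902, and both hairpin libraries lay above their control for 30 of the 31, against 37% of all genes tested. On 30 August the medians were 0.42 and 1.07, with both above for 21 of the 31 against 34.7%. In the undated libraries they were 0.75 and 0.08, with both above for 18 of the 31 against 37.2%. The corresponding medians over all genes tested lay between -0.01 and 0.02.

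Summed CPM over the 31 relative to the own control gave the same order of labels with sh900, at 1.64-fold, 1.16-fold and 3.23-fold (undated, 30 August and 3 September). With sh902 it was 1.16-fold, 1.74-fold and 2.67-fold. The 6 hairpin libraries all lay above the control of their own label for 13 of the 31, against 12.8% of all genes tested: Ifit1, Isg15, Oasl1, Mx1, Bst2, Xaf1, Parp14, Ifi35, Ifi44, Usp18, Irf7, Dhx58 and Gbp3. For none of the 31 did all hairpin libraries lie above all 3 controls, or all below them (3.37% and 3.03% of all genes).

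**Figure D2:**
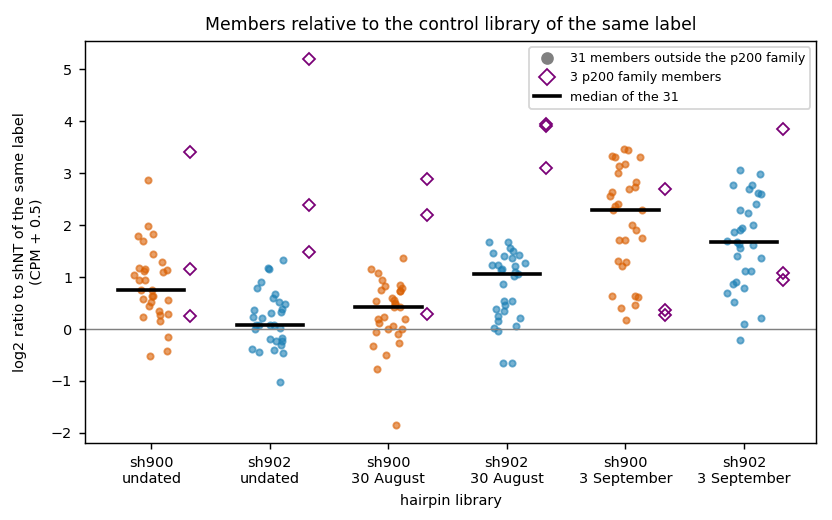
Log2 ratio of each member to the shNT library of the same label, for the 6 hairpin libraries, computed on CPM + 0.5. Filled points are the 31 members outside the p200 family, with black bars at medians from 0.08 (sh902, undated) to 2.29 (sh900, 3 September), and diamonds are the 3 p200 members, all above 0 in every library.

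In the model of the 3 groups alone, edgeR called no member in any comparison with shNT, and it called 0% of all 17602 genes tested (Benjamini-Hochberg adjusted p under 0.05). At an unadjusted p under 0.05 stood 4 members for the mean of both hairpins, 1 for sh900 and 4 for sh902, out of 34 each, against 16%, 14.7% and 15.8% of all genes. DESeq2 without the block called 3, 1 and 3, against 3.71%, 3.5% and 3.72% of the genes it tested. Libraries with the same label deviated together from their group means, so the date label was also entered as a block. With the block, 9 of the 34 tested members rose for the mean of both hairpins and none fell, against 11.7% of all genes called, 6.08% higher and 5.59% lower. They were Ifi35, Ifi44, Irf7, Ddx58, Dhx58, Gbp3 and the 3 p200 genes. Of these, Ifi204 and Ifi203 passed the low-count filter through the hairpin libraries, so their direction was largely set by it. Their controls held 4, 4 and 0 counts and 9, 7 and 5 counts (undated, 30 August and 3 September). The controls of Ifi202b held 14, 143 and 5 counts and those of Dhx58 67, 19 and 7, in the same order. These 2 genes also needed hairpin libraries to pass, so their calls are not fully independent of the filter. The median blocked log2 fold change was 1.28 over the 34, against -0.02 over all genes.

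With sh900 alone 8 members rose in the blocked fit, against 8.85% of all genes called, 5.39% higher and 3.45% lower. They were Parp14, Ifi35, Ifi44, Irf7, Irf9, Ddx58, Ifi202b and Ifi204. With sh902 alone 4 rose, against 10.5% of all genes called, 5.12% higher and 5.39% lower. They were Gbp3, Ifi202b, Ifi204 and Ifi203. Neither comparison called a member lower, and both use the same 3 shNT libraries. DESeq2 with the block called 21 members for the mean of both hairpins, 19 for sh900 and 13 for sh902, against 15.2%, 15.3% and 15.9% of the genes it tested.

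Most of these calls were lost in most of the fits that left out 1 library. Leaving out 1 library in the blocked fit left 2 members called for the mean of both hairpins without undated sh900, without sh900 of 3 September or without sh902 of 3 September. It left 4 without shNT of 3 September, undated sh902 or sh902 of 30 August, 5 without undated shNT, 6 without sh900 of 30 August and 10 without shNT of 30 August. Ifi202b and Ifi204 were called in 9 of the 9 such fits, and each of the other 7 in 1 to 3. For sh900 alone the count ran from 0 without sh900 of 30 August to 12 without shNT of 30 August. The sh900 calls of Parp14, Ifi35, Ifi44, Irf7, Irf9 and Ddx58 were each lost without any 1 of the 3 sh900 libraries. For sh902 alone it ran from 2 without undated sh902 to 8 without shNT of 30 August, and the Gbp3 call was made in 4 of 9. The blocked fit on the 6 dated libraries alone called 0 members in any comparison of hairpins, with Ifi202b and Ifi204 at an adjusted p of 0.0673 for the mean of both.

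Among the antiviral effectors, 2 of 19 tested rose for the mean of both hairpins with the block, and 18 of 19 had a positive log2 fold change. Ifi44, an interferon-induced cytoplasmic protein, was at 29.3, 118 and 51.5 CPM in the undated shNT, sh900 and sh902 libraries, at 0.846, 1.82 and 2.65 CPM on 30 August and at 3.82, 38.8 and 27.6 CPM on 3 September. Both hairpin libraries exceeded the control at each label, but the undated control exceeded every library of 30 August. It rose by 1.98 ± 0.44 on the log2 scale (SE, adjusted p = 0.0349 with the block, edgeR). The adjusted p ran from 0.0329 to 0.121 with 1 library left out, and was 0.549 without the block.

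Ifi35, a leucine zipper protein that partners with Nmi, was at 12.5, 44.6 and 18.2 CPM (undated shNT, sh900 and sh902), at 3.38, 5.98 and 4.10 CPM on 30 August and at 3.21, 21.3 and 11.1 CPM on 3 September. At each label sh900 was the highest library and shNT the lowest. Ifi35 rose by 1.30 ± 0.31 for both hairpins combined (adjusted p = 0.0358 with the block, 0.00676 to 0.178 with 1 library left out) and by 1.77 ± 0.35 with sh900 (adjusted p = 0.023). Parp14, an ADP-ribosyltransferase, was at 48.8, 107 and 51.5 CPM undated, at 8.31, 12 and 10.98 CPM on 30 August and at 13.1, 53.7 and 34.4 CPM on 3 September. Undated sh900 again stood highest, and sh902 was close to shNT in the undated libraries. Parp14 rose by 1.22 ± 0.29 with sh900 (adjusted p = 0.0432 with the block), a call that 8 of the 9 fits with 1 library left out did not make; without shNT of 30 August it was made.

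The Ifit proteins bind foreign RNA and restrict its translation. Ifit3 was at 57.7, 111 and 28.3 CPM in the undated shNT, sh900 and sh902 libraries, at 0.9998, 1.51 and 3.46 CPM on 30 August and at 5.57, 60.3 and 17.5 CPM on 3 September. Its neighbour Ifit3b was at 32.01, 70.9 and 24.0 CPM, at 0.731, 1.58 and 2.91 CPM and at 3.63, 40.4 and 14.6 CPM in the same order. In both genes sh902 lay below shNT in the undated libraries and above it at both dates. Neither was called for any hairpin: the blocked log2 fold changes for the mean of both were 1.20 ± 0.74 (adjusted p = 0.339) and 1.48 ± 0.63 (adjusted p = 0.185). Of the 50-base words in Ifit3 exons 51.2% also occur in Ifit3b, so counts could be split between these copies.

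Oasl2, a relative of the oligoadenylate synthetases, was at 134, 288 and 166 CPM undated (shNT, sh900 and sh902), at 3.00, 2.42 and 7.65 CPM on 30 August and at 15.5, 140 and 96.0 CPM on 3 September. It had the widest range in CPM of the effectors, and sh900 of 30 August lay below its control. The blocked log2 fold change for the mean of both hairpins was 1.39 ± 0.62 (adjusted p = 0.208). Isg15, whose promoter is printed above, encodes a ubiquitin-like protein joined to many targets in the interferon response. It was at 31.3, 60.3 and 43.9 CPM undated, at 1.08, 1.31 and 3.55 CPM on 30 August and at 2.37, 22.6 and 14.8 CPM on 3 September. All its hairpin libraries exceeded the control of their label, yet the blocked value of 1.51 ± 0.55 did not pass (adjusted p = 0.133).

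The remaining effectors were not called for any hairpin. Their blocked log2 fold changes for the mean of both ran from -0.12 ± 0.35 for Ifit2 to 2.06 ± 0.82 for Oas1a. Bst2, which tethers budding virus particles, reached 1.56 ± 0.41 (adjusted p = 0.0588), and Xaf1, an antagonist of the apoptosis inhibitor XIAP, reached 1.96 ± 0.53 (adjusted p = 0.06). Usp18, which strips Isg15 from proteins and dampens the receptor, reached 1.26 ± 0.38 (adjusted p = 0.077). Mx1, a dynamin-like GTPase, was below 2 CPM in all libraries, and its value of 1.56 ± 0.48 rests on few counts (adjusted p = 0.0718). Rsad2, a radical SAM enzyme also called viperin, had 1.19 ± 0.59 and Ifi27 had 0.81 ± 0.41. Of the Oas1a words of 50 bases 57.6% also occur in Oas1g, so its counts are uncertain.

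The transcription factors were split. Irf7, which drives interferon and antiviral genes and is itself induced by interferon, was at 37.0, 121 and 39.3 CPM in the undated shNT, sh900 and sh902 libraries, at 1.73, 4.20 and 4.06 CPM on 30 August and at 4.62, 36.2 and 16.2 CPM on 3 September. Both hairpin libraries lay above the control at each label, by the least in undated sh902. Irf7 rose by 1.496 ± 0.36 for both hairpins combined (adjusted p = 0.0408 with the block, 0.0412 to 0.114 with 1 library left out) and by 1.99 ± 0.40 with sh900 (adjusted p = 0.0283).

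Irf9, the DNA-binding partner of STAT2, was at 76.9, 110 and 62.3 CPM undated (shNT, sh900 and sh902), at 13.3, 22.4 and 13.5 CPM on 30 August and at 32.9, 83.0 and 57.3 CPM on 3 September. Undated sh902 lay below its control, and sh902 of 30 August was level with it. Irf9 rose with sh900 by 0.84 ± 0.20 (adjusted p = 0.0421 with the block, 0.0375 to 0.165 with 1 library left out), and the difference between the hairpins did not pass (adjusted p = 0.0968). The call was made in 1 of the 9 fits with 1 library left out, the one without shNT of 30 August. Irf1, Irf3 and Stat2 had blocked log2 fold changes of 0.15 ± 0.17, 0.07 ± 0.11 and -0.09 ± 0.17 for the mean of both hairpins. Irf3, which is activated by phosphorylation and expressed constitutively, stayed between 31.1 and 38.6 CPM over the 9 libraries, the narrowest range, as a ratio, of the tested members.

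The cytosolic RNA sensors detect viral RNA and signal towards interferon genes. Ddx58, which encodes RIG-I, was at 86.3, 127 and 86.3 CPM undated (shNT, sh900 and sh902), at 18.3, 33.6 and 27.0 CPM on 30 August and at 31.8, 78.4 and 60.2 CPM on 3 September. Undated sh902 was level with its control, and the other 5 hairpin libraries exceeded theirs. Ddx58 rose by 0.69 ± 0.16 for both hairpins combined (adjusted p = 0.0327 with the block, 0.0417 to 0.119 with 1 library left out) and by 0.90 ± 0.18 with sh900 (adjusted p = 0.0253).

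Dhx58, which encodes the RIG-I relative LGP2, was at 2.45, 10.0 and 6.91 CPM undated, at 0.731, 0.951 and 1.20 CPM on 30 August and at 0.267, 3.26 and 2.45 CPM on 3 September. It rose by 1.77 ± 0.47 for both hairpins combined (adjusted p = 0.0488 with the block), and kept the call in 1 of the 9 fits with 1 library left out, where the adjusted p reached 0.226. Ifih1, which encodes the third sensor of the family, had a blocked value of 1.09 ± 0.45 (adjusted p = 0.17) and ranged from 3.31 to 39.4 CPM.

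Guanylate binding proteins are large GTPases that attack vacuoles of pathogens. Gbp3 was at 90.4, 205 and 203 CPM in the undated shNT, sh900 and sh902 libraries, at 38.3, 53.4 and 103.5 CPM on 30 August and at 19.4, 105.1 and 122.5 CPM on 3 September. Its control was lowest on 3 September rather than on 30 August, and 5 of its 6 hairpin libraries exceeded the highest control. Gbp3 rose by 1.51 ± 0.33 for both hairpins combined (adjusted p = 0.0313 with the block, 0.0203 to 0.142 with 1 library left out) and by 1.69 ± 0.36 with sh902 (adjusted p = 0.0321). Gbp2 and Gbp7 were not called, with 0.68 ± 0.34 and 0.33 ± 0.29.

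Cxcl10, a chemokine that attracts T cells, ranged from 0.343 CPM in shNT of 3 September to 8.46 CPM in undated sh900. Its blocked log2 fold change was 1.29 ± 0.56 for both hairpins combined (adjusted p = 0.178). Undated sh902 lay below its control, and the other 5 hairpin libraries lay above theirs.

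**Figure D3:**
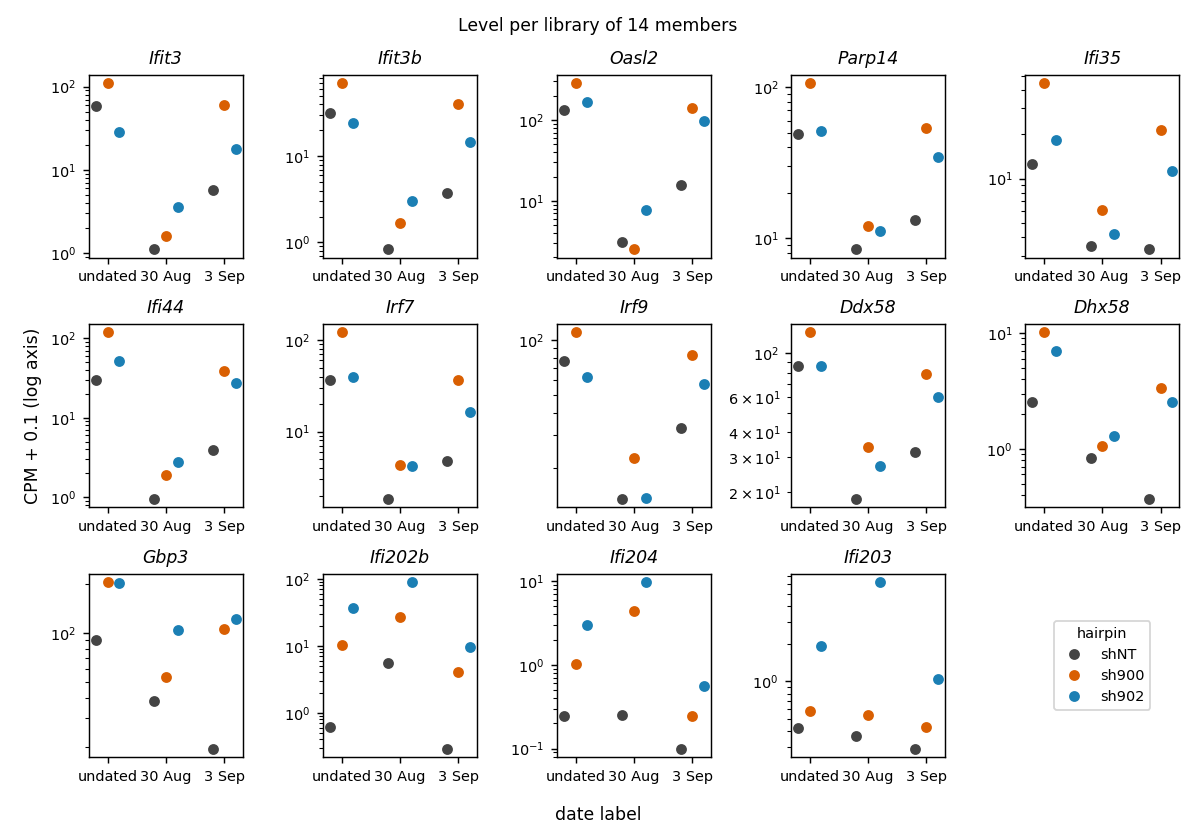
CPM + 0.1 on a log axis in each library for the 14 members given in full, with the date label on the horizontal axis and the hairpin by colour. In 7 of the panels, from Ifit3 to Irf9, all 3 points of 30 August lie below the other 6, while for Ifi202b the blue sh902 points are highest at every label, at 36.7, 89.5 and 9.42 CPM.

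For the mean of both hairpins with the block, Ifi204 and Ifi202b had the highest log2 fold changes of the 34 tested members. Ifi202b, whose protein has HIN domains without a pyrin domain and binds DNA, was at 0.512, 10.2 and 36.7 CPM in the undated shNT, sh900 and sh902 libraries, at 5.499, 27.0 and 89.5 CPM on 30 August and at 0.191, 3.96 and 9.42 CPM on 3 September. Relative to the own control this was 19.9-fold, 4.91-fold and 20.8-fold with sh900 and 71.8-fold, 16.3-fold and 49.4-fold with sh902. The groups still overlapped, because the control of 30 August lay above sh900 of 3 September. Ifi202b (chr1:173962568-173982744, GRCm38, minus strand) rose by 4.11 ± 0.44 for both hairpins combined (adjusted p = 0.00492 with the block, 0.000355 to 0.0287 with 1 library left out).

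Ifi204, which encodes a pyrin and HIN domain protein that senses DNA, had few counts in the controls: 4, 4 and 0 in the shNT libraries (undated, 30 August and 3 September). With sh900 it had 29, 109 and 4 counts, and with sh902 94, 225 and 11. These are 0.933, 4.32 and 0.147 CPM with sh900 and 2.86, 9.61 and 0.456 CPM with sh902. On 3 September the sh902 level was 3.99-fold that of a floor of 3 counts in the control library. The floor covers counting error in the control only, not that of the 11 counts with sh902. Ifi204 (chr1:173747293-173766943, GRCm38, minus strand) rose by 4.55 ± 0.51 (adjusted p = 0.00492 with the block, 0.00519 to 0.0241 with 1 library left out), a value that depends on the low control counts.

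Ifi203 was at 0.329, 0.482 and 1.83 CPM undated (shNT, sh900 and sh902), at 0.269, 0.436 and 6.11 CPM on 30 August and at 0.191, 0.330 and 0.954 CPM on 3 September. It was the one member whose 6 hairpin libraries all lay above all 3 controls, against 3.37% of all genes tested, but the margin was 0.330 against 0.329 CPM, at 9 counts in each library. Ifi203 (chr1:173920407-173942672, GRCm38, minus strand) rose by 1.94 ± 0.52 for both hairpins combined (adjusted p = 0.0488 with the block, 0.0407 to 0.15 with 1 library left out). With sh902 it rose by 3.20 ± 0.56 (adjusted p = 0.0149, and 0.0199 to 0.0696 with 1 library left out, lost without undated shNT or undated sh902) and with sh900 the value was 0.69 ± 0.60 (adjusted p = 0.495). Of the 50-base words 20.0% in Ifi204 and 12.2% in Ifi203 also occur in other genes, 14.8% of those in Ifi204 in Ifi211, and none of those in Ifi202b do.

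The hairpins were also set against each other, which asks whether 2 sequences against 1 gene gave the same levels. Of the 34 tested members 22 had a negative blocked log2 fold change, that is, lower with sh902, and 12 a positive one. The edgeR fit without the block called 0 members, with 1 at an unadjusted p under 0.05 against 14.4% of all genes, and DESeq2 called 1 without the block (5.19% of the genes it tested) and 5 with it (10.3%). With the block 1 member differed, against 4.22% of all genes, 1.74% higher and 2.48% lower: Ifi203, higher with sh902 by 2.52 ± 0.53 (adjusted p = 0.0414). Only the fit without shNT of 30 August kept this call among those with 1 library left out (0.0209 to 0.235).

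Ifi202b and Ifi204 were higher with sh902 in each label but not called, at 1.62 ± 0.39 (adjusted p = 0.0643) and 1.40 ± 0.38 (adjusted p = 0.0798). Irf7 and Ifi35 were lower with sh902 in each label and not called either, at -0.98 ± 0.38 (adjusted p = 0.187) and -0.95 ± 0.33 (adjusted p = 0.142). Phf2 itself differed between the hairpins by 0.22 ± 0.19 (adjusted p = 0.55).

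The labels 30 August and 3 September were compared over all groups as a description of how members vary, with group and label as terms. Of the 34 tested members 18 were lower on 30 August and 2 were higher, against 20.5% of all genes called, 10.4% lower and 10.1% higher. The 18 lower ones were 13 of the 19 effectors, Irf7, Irf9, Stat2, Ddx58 and Gbp7. Oasl2 fell by 3.96 ± 0.75 on the log2 scale (adjusted p = 0.0189), Ifi44 by 3.41 ± 0.50 (adjusted p = 0.00646), Ifit3 by 3.33 ± 0.88 (adjusted p = 0.0477) and Ifit3b by 3.11 ± 0.73 (adjusted p = 0.0334). Ifi204 rose by 4.50 ± 0.49 (adjusted p = 0.00143) and Ifi202b by 3.47 ± 0.44 (adjusted p = 0.00337). Gbp3 (-0.12 ± 0.36), Cxcl10 (-0.10 ± 0.62) and Irf3 (0.08 ± 0.13) were not called.

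Leaving out sh900 of 30 August left 9 members called between the dates, leaving out sh900 of 3 September left 8 and leaving out sh902 of 3 September left 10. The calls of Ifi204, Ifi202b and Ifi44 were made in all 9 such fits, that of Oasl2 in 6, of Ifit3b in 4 and of Ifit3 in 2. Other markers moved with the same label. All 5 astrocyte markers were lower on 30 August, with summed levels of 233.5 to 322.7 CPM against 1721 to 5075 CPM on 3 September. So were 5 of 7 fibroblast, 4 of 6 oligodendrocyte lineage and 3 of 4 neuronal markers tested, against 10.4% of all genes. The summed fibroblast markers overlapped, at 40.56 to 172.7 CPM on 30 August against 44.05 to 47.35 CPM. Of 12 neural stem cell markers 2 were higher on 30 August, Nes and Vim, and 3 were lower, against 10.1% and 10.4% of all genes. Mki67, a gene of cycling cells, was at 868.5, 194 and 299 CPM on 30 August (shNT, sh900 and sh902) and at 60.1, 326 and 455 CPM on 3 September. Their part in the members' levels was not tested.

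**Figure D4:**
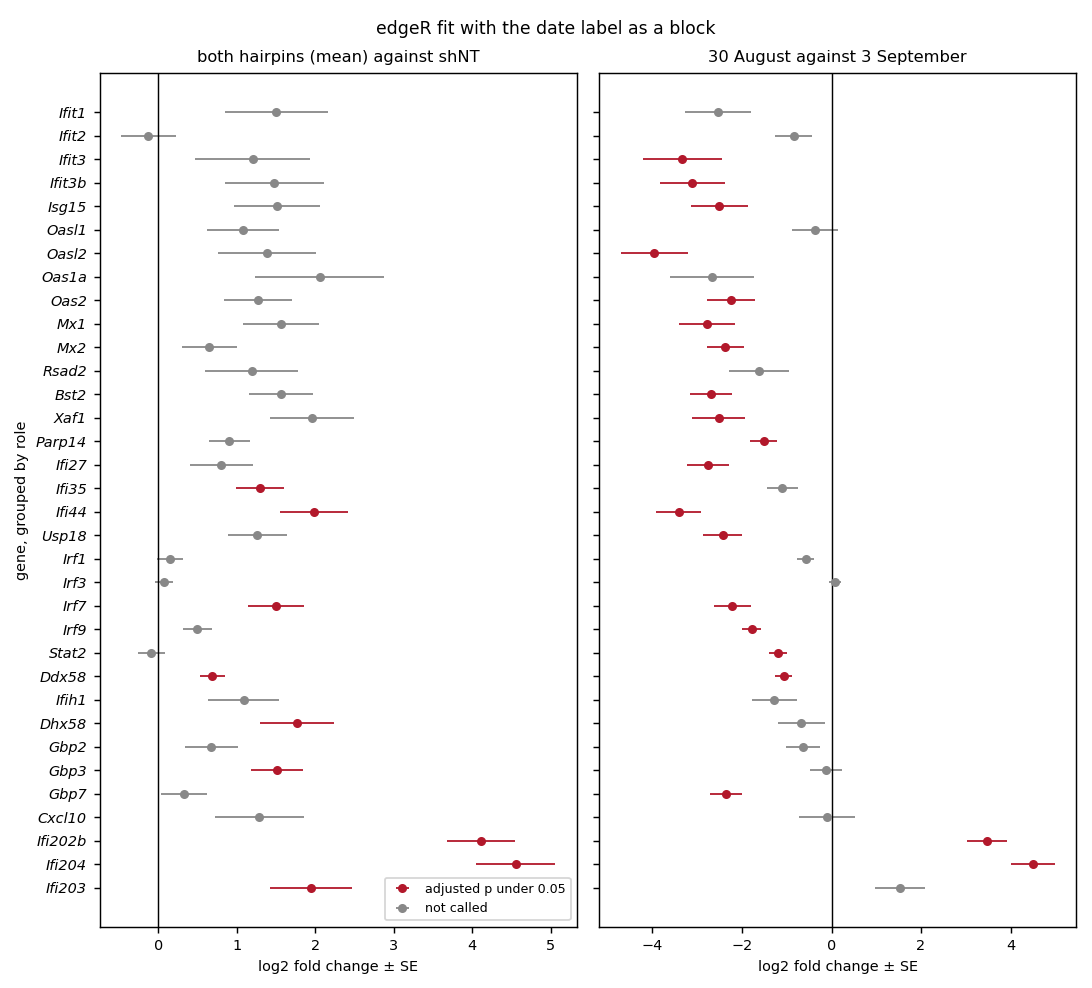
Log2 fold change ± SE of the 34 tested members in the edgeR fit with the date label as a block, for both hairpins against shNT (left) and for 30 August against 3 September (right), with called members in red. The 9 called members on the left are all above 0, and on the right 18 called members lie below 0 while Ifi202b (3.47) and Ifi204 (4.50) lie above it.

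The rest of the pathway was read from a list of 121 further genes, 88 of them tested. With the block 22 of the 88 were higher and 1 lower for the mean of both hairpins, against 6.08% and 5.59% of all genes, and the median log2 fold change was 0.61. None was called without the block, with 20 at an unadjusted p under 0.05 against 16% of all genes. Of the 13 interferon genes none passed the filter: together they had 2 to 18 counts per library, 9 to 18 with shNT and 2 to 9 with a hairpin. Among 10 receptors and signalling genes 2 were higher, Ifngr2 and Il10rb. Ifnar1 and Ifnar2, the chains of the type I receptor, had 0.03 ± 0.11 and 0.17 ± 0.15.

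The pathway genes with the smallest adjusted p for the mean of both hairpins included Ifi211, a p200 neighbour of Ifi204, which rose by 4.58 ± 0.54 (adjusted p = 0.00502 with the block) and which shares words with it. Tmem173, which encodes the DNA sensing adaptor STING, was at 1.57, 42.3 and 29.2 CPM undated (shNT, sh900 and sh902), at 4.04, 22.1 and 20.1 CPM on 30 August and at 0.763, 4.51 and 7.55 CPM on 3 September, and rose by 3.20 ± 0.46 (adjusted p = 0.00985). All its hairpin libraries lay above all 3 controls, against 3.37% of all genes tested. Nlrc5, which activates genes of antigen presentation, rose by 1.63 ± 0.25 (adjusted p = 0.00949) and Il10rb, a chain of the lambda interferon receptor, by 1.33 ± 0.17 (adjusted p = 0.00581). Lgals3bp, Shisa5, Tor3a and Slfn2 rose by 2.01 ± 0.31, 1.42 ± 0.19, 0.87 ± 0.14 and 3.71 ± 0.61, the last from controls of 0.0731, 0 and 0.0763 CPM. For each of these 8 genes all 6 hairpin libraries lay above the control of their label, against 12.8% of all genes tested. For Slfn2 and Ifi211 this was by 1 count against 0 in 1 library each. The 8 were picked by the fit with the same label as a block, so this order is no separate evidence.

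Of 11 other p200 genes, all on chromosome 1, 2 passed the filter, and both were higher with the block: Ifi211 and Ifi209 (3.84, adjusted p = 0.0384). A gene near 0 in the controls can pass the filter only through the hairpin libraries, so its direction is not independent of the filter. Like the 3 p200 members both were highest in sh902 of 30 August.

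Most markers of immune cells were at or near 0. Of 12 microglia and macrophage markers 1 was tested, C1qa, C1qb and Tyrobp were at 0 in all 9 libraries, and the summed level was 0.692 to 1.90 CPM with shNT, 0.951 to 3.51 with sh900 and 1.03 to 1.49 with sh902. The highest sum was that of undated sh900, where P2ry12, the marker tested, was at 2.89 CPM (90 counts) against 0.365 CPM in undated shNT. Of 5 T lymphocyte markers none was tested, and their sum was at most 0.611 CPM. For the mean of both hairpins with the block, 4 of 6 oligodendrocyte lineage, 3 of 4 neuronal, 2 of 5 astrocyte, 1 of 7 fibroblast and 1 of 2 endothelial markers tested were lower. Of all genes tested 5.59% were lower and 6.08% higher in this fit, and none was called without the block. Of the 12 neural stem cell markers Nes (1.66) and Vim (0.95) were higher on the log2 scale, while Pax6 (-0.76), Prom1 (-1.83) and Hes5 (-2.09) were lower. The part of these markers in the members' changes was not tested.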

How the data were processed

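The deposited table held the authors' estimated counts per gene, as whole numbers, for 9 libraries. Per the submitters' processing notes the tools included RSEM and STAR 2.5.0a, with Trimmomatic 0.36, cutadapt and FastQC, and the build was GRCm38. The annotation release is not given in the sources used here. RSEM divides reads between near-identical genes by a model, and the library protocol does not say that strand was kept.

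Symbols and coordinates came from GENCODE M21 (54165 of 54232 identifiers matched). Libraries were grouped by treatment in their labels. CPM are counts over the TMM-adjusted library size, and log2 ratios use CPM + 0.5. Tests used the quasi-likelihood F test of edgeR 4.0.16 (R 4.3.3) with TMM factors, robust dispersions and the default expression filter by group. It left 17602 genes with 99.9% of counts, with Benjamini-Hochberg adjustment over all of them and a threshold of 0.05. Standard errors are the log2 fold change over the square root of F. The model had group alone, and the replicate block by date label was an alternative. Deviations from group means correlated at 0.39 to 0.71 between libraries of 30 August, 0.49 to 0.73 between those of 3 September, 0.12 to 0.56 between undated ones and -0.70 to 0.36 across labels. Each same-label pair was over 0.1, so blocked values stand beside the others. The range of the undated pairs overlapped that across labels, so a shared batch of the undated libraries is assumed rather than shown. The lowest chi-square per degree of freedom between 2 libraries of a group was 52.6, so none was a duplicate. The scripts were tested on simulated counts.

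Given in full are members called in either fit for a hairpin comparison and the 6 called members with the largest change between dates. Of the pathway list, the 8 with the smallest adjusted p are named, plus the type I receptor chains, chosen for their role. The members and lists were chosen with earlier results of these data known. Alternatives were DESeq2 1.42.0, RLE factors, no filter, leaving out each library and using only the dated ones.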

Additional observations from a re-analysis of the deposited data

Results flagged for a closer look

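Ifi203 differed between the hairpins once the date label was entered as a block. Its log2 fold change was 2.52 for sh902 against sh900 (adjusted p = 0.0414, edgeR), and sh902 was higher in 3 of 3 labels. Without the block the value was 2.81 (adjusted p = 0.114), and on the dated libraries alone with the block it was 2.82 (adjusted p = 0.319). With sh902 of 30 August left out it was 1.75 (adjusted p = 0.125). The sh900 libraries held 15, 11 and 9 counts of Ifi203 and the sh902 libraries 60, 143 and 23 (undated, 30 August and 3 September).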

How the results depend on the processing

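Members called for the mean of both hairpins, sh900, sh902 and sh902 against sh900 numbered 0 each without the replicate block. They numbered 9, 8, 4 and 1 with it, 3, 1, 3 and 1 by DESeq2 without it and 21, 19, 13 and 5 by DESeq2 with it. RLE factors with the block gave 9, 8, 4 and 1, and no low-count filter with the block gave 8, 7, 4 and 3. No filter without the block gave 1 for sh902, namely Ifi203, and 0 for the others. With the block and 1 library left out the counts were 2, 4, 5, 6 or 10, 0 to 12, 2 to 8 and 0 to 5, and without the block all were 0. The dated libraries alone with the block gave 0 throughout. Between the dates the count of 20 became 12 without the filter, 16 on the dated libraries alone and 8 to 25 with 1 library left out.

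Of 780 values for named members, 570 kept direction and side of the threshold, 189 passed it under the alternative (180 with the block), 20 no longer did, all for Oasl2, Ifit3 or Ifit3b between the dates, and 1 turned: Ifit3 for the mean of both hairpins, from 0.52 to -0.032 without shNT of 30 August and no block, where leaving out other libraries gave up to 3.24. The cause was not tested. Depth limits Ifi204, Ifi203, Mx1 and Oas3 most.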

Other observations

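Other groups of the pathway list, read from the blocked fit, moved with the hairpins and the dates in different numbers. Of all genes tested 6.08% were called higher for the mean of both hairpins and 10.4% lower on 30 August. Among 11 tested GTPases of the guanylate binding and immunity-related families 1 was higher for the mean of both hairpins and 7 were lower on 30 August, with a median log2 fold change of -2.75 between the dates. Among 13 genes of antigen presentation 2 were higher for the mean of both hairpins and 4 were lower on 30 August. Of 3 tested chemokine genes other than Cxcl10, 2 were higher for the mean of both hairpins: Ccl2 by 2.95 and Ccl7 by 3.00 on the log2 scale. These chemokines attract monocytes, and they are named after their values were seen.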
